A study of Danio rerio with 4 samples.

Results

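The comparison described here is that of zebrafish embryos carrying an inducible en-pou5f3 transgene with their wild-type siblings at the 3-somite stage (3-ss), which takes 2 of the 4 arrays of the series. The transgene, Tg(hsp:en-pou5f3), puts a fusion of the Drosophila Engrailed repressor domain with Pou5f3 under a heat shock promoter. The en-pou5f3 embryos were hemizygous, and they and their wild-type siblings were of the RW strain, raised at 25°C and both heat-shocked at 37°C for 60 min, so that the treatment itself is common to both groups. After 30 min of further development each embryo was genotyped, RNA was pooled by genotype, and 250 ng of it was hybridised to an Affymetrix zebrafish array. The embryos came from a single clutch and their RNA was prepared on the same day. The other 2 arrays hold the same genotypes at 90% epiboly. With 1 pool and 1 array a genotype, no difference below has a replicate array and none was tested here. The paper re-measured some of its most changed genes by qRT-PCR and in situ hybridization, and reports that the results largely matched its array data.

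Pou5f3 is the zebrafish relative of mammalian Oct4, a POU domain transcription factor that binds DNA with Sox proteins. In the early embryo it works with SoxB1 factors and Nanog as the zygotic genome is switched on, and later it is expressed in the neural plate, where it takes part in forming the midbrain, the hindbrain and the boundary between them. A fusion to a repressor domain is meant to shut down genes that the factor binds. Arrays of whole embryos cannot tell fewer cells of a type from less RNA per cell.

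Values are signals, the scaled intensities of a probe set. Signals under 32.4, the level that 95% of control signals without a zebrafish target did not pass, were set to this floor, and log2 ratios are given as en-pou5f3 over wild-type. Where only 1 signal passed the floor the fold of that gene is a bound, given as "at least" so many fold. Of 15502 probe sets, 11970 passed the floor on at least 1 of the arrays at 3-ss and 3532 on neither. By a threshold of 2-fold, 232 of the 11970 (1.94%) were lower in en-pou5f3 embryos and 215 (1.8%) were higher. By named gene, each read from its brightest probe set, 138 of 7472 (1.85%) were lower and 117 (1.57%) higher, and the median log2 ratio was 0.00. Genes nearest to the threshold were ccnf, just inside it with signals of 864 in en-pou5f3 and 1730 in wild-type embryos, and gata2a, just outside it with 527 in en-pou5f3 and 1054 in wild-type embryos.

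Small changes were about as often increases as decreases, while large ones were mostly decreases. At 3-fold, 64 probe sets were lower and 24 higher, and at 8-fold 7 were lower and 2 higher. These counts depend on the floor, as 35 of the decreases past 2-fold and 49 of the increases were bounds. Counts at 3-fold and 8-fold were not made without it. Increases were more often found among dim probe sets. Up to a mean signal of 100, 81 of 3374 probe sets were lower and 101 higher (2.99%), and between 300 and 1000, 60 of 3166 were lower and 40 higher (1.26%). The SD of the log2 ratio was 0.502 in the dim class and 0.265 over 3000, so that a 2-fold change stands further from the bulk of the values in bright genes.

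**Figure D1:**
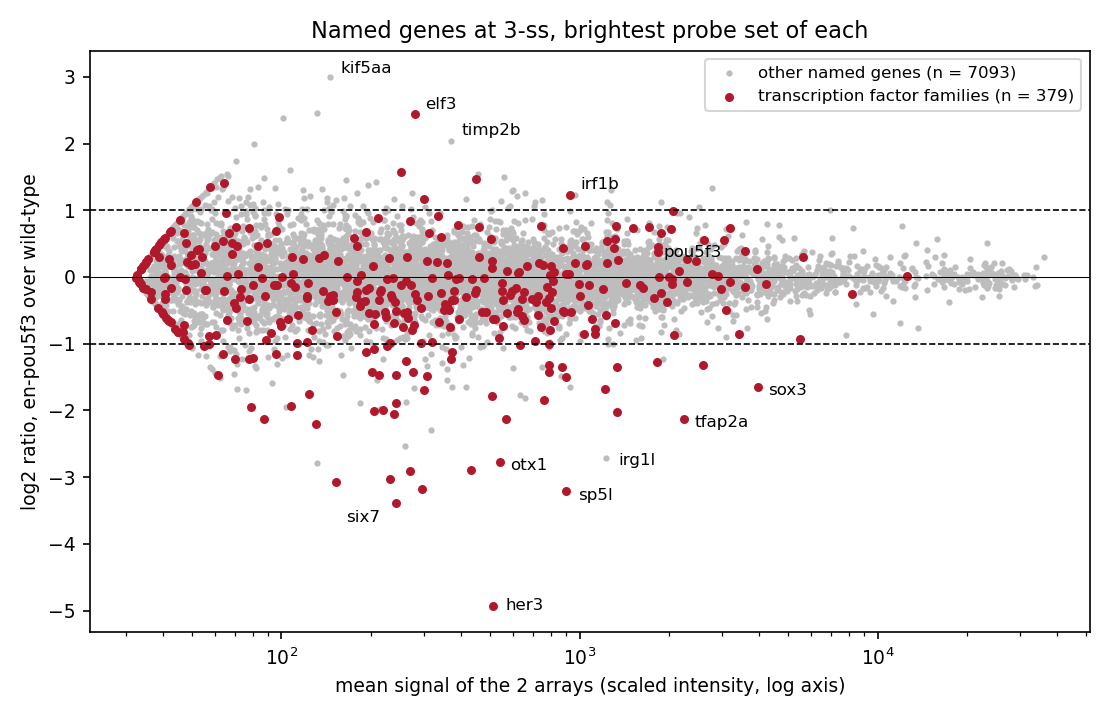
Log2 ratio (en-pou5f3 over wild-type, 3-ss) against the mean signal of both arrays (log axis), 1 point for each of 7472 named genes, with dashed lines at 2-fold and the 379 genes of transcription factor families in red. Transcription factors make up most of the points at the bottom, with her3 at -4.93 (a bound), while the points narrow around 0 towards bright signals.

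The pou5f3 probe set had signals of 2138 in en-pou5f3 and 1277 in wild-type embryos, 1.67-fold higher with the transgene, and whether its probes also read the fusion is not given in the sources used here. The markers fixed to check stage and germ layers passed the floor in both genotypes, apart from sox17 of the endoderm, which was under the floor in both. All 8 measured markers had log2 ratios below 0, with a median of -0.94, and foxd3, gata1a and myod1 were at least 2-fold lower. The keratin krt4 of the outer layer had signals of 25124 in en-pou5f3 and 27052 in wild-type embryos, egr2b of the hindbrain 671 and 929, and tbxta of the notochord and tail bud 604 and 702, in the same order. Those of myod1, the muscle regulator, were dim, at 35.9 in en-pou5f3 and 73.9 in wild-type embryos. Technical controls lay close together. The 3′ to 5′ signal ratio of the gapdh control was 3.84 in en-pou5f3 and 3.83 in wild-type embryos, 74.4% of probe sets passed the floor in en-pou5f3 and 72.8% in wild-type embryos, and 9 hybridisation controls had log2 ratios from -0.20 to 0.26. The 11 control probe sets for RNAs added before labelling ran somewhat higher in the en-pou5f3 array, with a median log2 ratio of 0.33.

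Transcription factors were the class of genes in which the decreases gathered. Of 379 measured genes in the families of transcription factors, 55 (14.5%) were at least 2-fold lower, beside the 1.85% of all named genes, and 8 (2.11%) were higher, beside 1.57%. They made up 39.9% of all lower genes, 6.84% of all higher genes and 5.07% of the genes measured. Among the 50 lowest log2 ratios of named genes 29 belonged to them. Outside these families 83 of 7093 genes (1.17%) were lower and 109 (1.54%) higher. The largest decrease of the comparison was that of her3, with signals of 3.20 in en-pou5f3 and 990 in wild-type embryos, at least 30.5-fold lower. In its family of her, hes and hey genes 2 of 14 measured were lower and 0 higher (median log2 ratio -0.35). The other lower member was her5, with 102 in en-pou5f3 and 762 in wild-type embryos, 7.46-fold lower.

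As measured here, homeobox genes of the families used, whose products assign regional identity along the embryo, passed 2-fold in 1 direction alone. Of 138 measured members in 9 families 24 were lower by 2-fold or more and 0 higher. Their median log2 ratio was -0.33. The paired-type genes had 6 of 12 lower. In this family otx1, a forebrain and midbrain regulator, had signals of 139 in en-pou5f3 and 944 in wild-type embryos, 6.80-fold lower. The eye field gene rx3 had 527 in en-pou5f3 and 2154 in wild-type embryos, 4.08-fold lower. Related genes did not all follow, as rx2 had 104 in en-pou5f3 and 111 in wild-type embryos and otx2b had 513 and 766, which is 1.49-fold lower. The organizer gene gsc and the forebrain gene hesx1 were detected in wild-type embryos alone, with signals of 22.2 and 30.5 in en-pou5f3 embryos, against 90.0 and 125.7 in wild-type embryos, so that gsc was at least 2.77-fold and hesx1 at least 3.87-fold lower.

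The Iroquois genes form a small family of neural patterning factors, of which 5 of 7 on the array passed the floor. All 5 had lower signals in en-pou5f3 embryos. The signal of irx1a was 88.0 in en-pou5f3 and 350.9 in wild-type embryos, that of irx1b 578 and 1854, and that of irx7 431 and 1153, so that these 3 were between 2.68-fold and 3.99-fold lower. The others, irx3a and irx5a, had log2 ratios of -0.62 and -0.35. The eye field regulator six7 had 42.3 in en-pou5f3 and 443 in wild-type embryos, 10.5-fold lower. The eye and forebrain genes six3a and six3b were 2.18-fold and 2.33-fold lower, while six4a, six4b and six2a had log2 ratios between -0.41 and -0.06, and six6a, six6b and six5 had log2 ratios of 0.12, 0.12 and 0.68. Both pax6 copies were lower, pax6b with 50.6 in en-pou5f3 and 413 in wild-type embryos and pax6a with 416 and 845. The pax2a gene of the midbrain-hindbrain boundary stayed under the threshold with 371 in en-pou5f3 and 702 in wild-type embryos, and pax7a, pax8 and pax9 were near the floor in both. Among LIM homeobox genes, isl1a of early neurons had 92.7 in en-pou5f3 and 383 in wild-type embryos, and lhx5 and lhx9 were 2.26-fold and 2.22-fold lower.

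Among further homeobox genes, dbx1a of the neural tube had signals of 80.98 in en-pou5f3 and 327 in wild-type embryos, and the forebrain gene emx2 had 121 and 264. Among POU genes, the family of Pou5f3 itself, 2 of 7 were lower and 0 higher. The octamer-binding factor gene pou2f1b had 110 in en-pou5f3 and 294 in wild-type embryos, and pou3f3b, a neural gene, had 41.6 and 97.9, whereas its copy pou3f3a had a log2 ratio of 0.42 on dim signals.

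Hox genes, which specify position from the hindbrain to the tail, showed a small and even shift. Of 42 on the array 37 passed the floor, 35 had a log2 ratio below 0, and the median was -0.30. Only hoxa2b, hoxc5a and hoxd3a were at least 2-fold lower, and no gene was higher. The signal of hoxa2b was 131 in en-pou5f3 and 277 in wild-type embryos, and hoxc5a and hoxd3a were dim, with wild-type signals of 76.5 and 65.4. Paralogue groups 1 to 4 had a median log2 ratio of -0.38 over 12 genes, groups 5 to 8 of -0.39 over 12 genes, and groups 9 to 13 of -0.21 over 13 genes. In groups 1 to 4, 11 of the 12 log2 ratios were below 0. The highest was that of hoxb1a, which marks a single hindbrain segment. Its signals were 1133 in en-pou5f3 and 985 in wild-type embryos, a small difference (0.20).

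**Figure D2:**
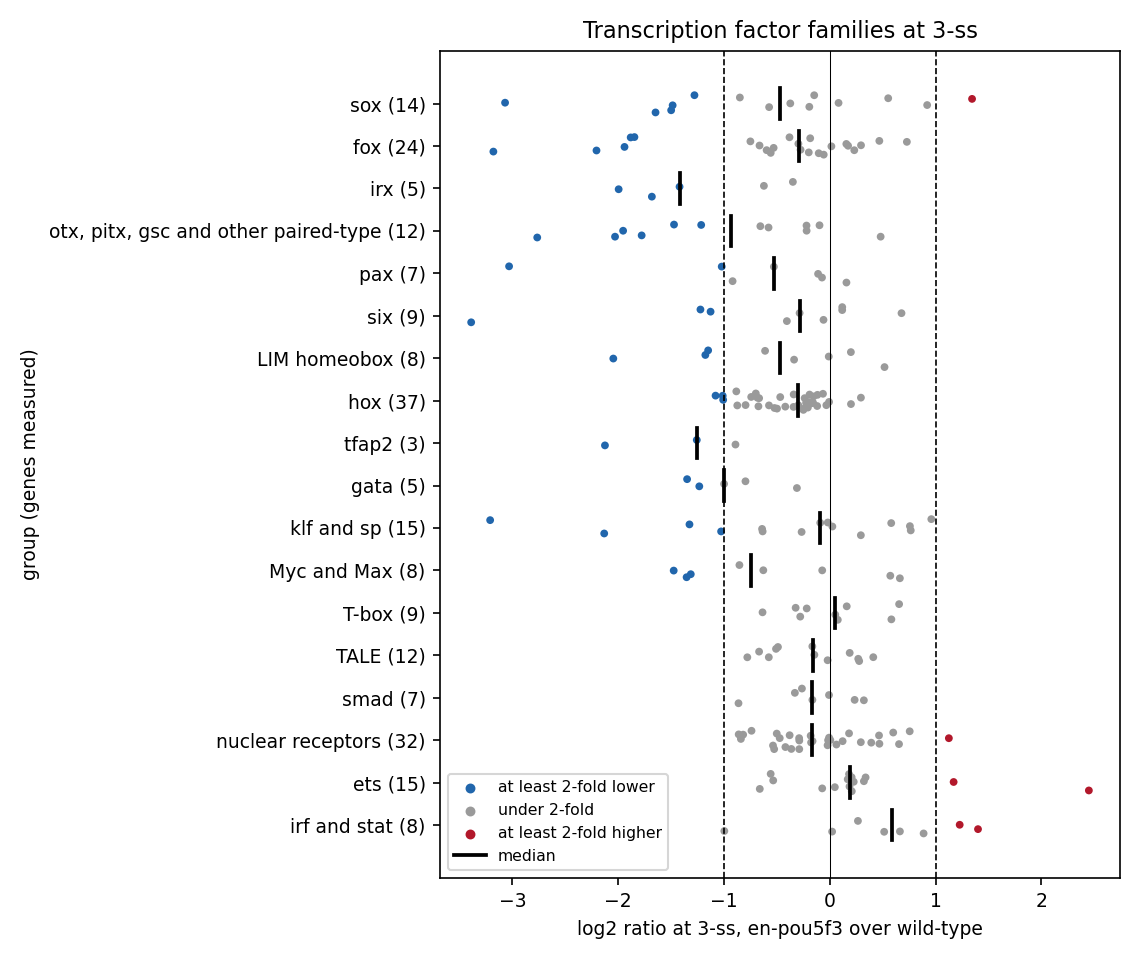
Log2 ratio (en-pou5f3 over wild-type, 3-ss) for 18 families of transcription factors, 1 point a gene, with the median as a bar, dashed lines at 2-fold and the number measured in brackets. Points past the lower line are spread over the upper families, hox genes lie just left of 0 around a median of -0.30, and the ets and irf and stat families at the bottom have their changed members on the right.

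Sox factors bind DNA together with POU factors, and 14 of the 18 on the array passed the floor. By the 2-fold threshold 5 of these were lower and 1 was higher. The brightest decrease was that of sox3, a SoxB1 gene of neural progenitors, with signals of 1923 in en-pou5f3 and 6022 in wild-type embryos, 3.13-fold lower. A second sox3 probe set, with 234 and 629, was lower to a like extent, and one more was close to the floor. The SoxB1 genes did not move alike. The signal of sox2 was 803 in en-pou5f3 and 1447 in wild-type embryos in its brightest probe set (log2 ratio -0.85), while another sox2 probe set with 293 and 629 was 2.15-fold lower. The signal of sox19b was 582 in en-pou5f3 and 866 in wild-type embryos (-0.57), that of sox19a 3403 and 3767 (-0.15), and that of sox1a was on the other side, at 438 in en-pou5f3 and 231 in wild-type embryos (0.92). The SoxC genes sox11a and sox11b, active in young neural cells, were 2.43-fold and 2.83-fold lower, with all 3 probe sets of each below 0. The SoxB2 repressors sox21a and sox21b were lower too, sox21a 2.80-fold and sox21b at least 8.39-fold, while sox9b had 3109 in en-pou5f3 and 2119 in wild-type embryos. The higher member was sox32, the endoderm regulator, which was at least 2.54-fold higher on a dim signal of 82.5 in en-pou5f3 embryos.

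Of 24 measured Forkhead genes 5 were at least 2-fold lower and 0 higher. Both foxb1 copies, expressed in the neural plate, were among them. The signal of foxb1a was 58.7 in en-pou5f3 and 532 in wild-type embryos, 9.06-fold lower, and that of foxb1b was 46.4 and 214, 4.61-fold lower. The others were foxd5 of the early neural plate, foxd3 of the neural crest and foxa1 of the axial midline and endoderm. The signals of foxa1 were 44.6 in en-pou5f3 and 171 in wild-type embryos, whereas its relatives foxa2, foxa3 and foxa had log2 ratios of -0.56, -0.53 and -0.28. Widely used members such as foxk1, foxk2a, foxk2b, foxo3b and foxp1a lay between -0.38 and 0.17.

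Zinc finger and AP-2 factors added further decreases. The largest was sp5l, a target of Wnt signals, with signals of 175 in en-pou5f3 and 1620 in wild-type embryos, 9.26-fold lower, while its relative sp5a had 932 and 551 (log2 ratio 0.76). The signals of klf17, known for the hatching gland, were 210 in en-pou5f3 and 921 in wild-type embryos. All 3 AP-2 genes, regulators of epidermis and neural crest, were on the low side. The bright tfap2a had 838 in en-pou5f3 and 3653 in wild-type embryos, 4.36-fold lower, tfap2c was 2.39-fold lower, and tfap2b had a log2 ratio of -0.89 on dim signals. Of 5 GATA genes gata3 of the ectoderm, with 494 and 1257, and gata1a of the blood, with 46.5 and 109, passed the threshold in the same direction, and gata2a, gata5 and gata6 had log2 ratios of -0.999, -0.80 and -0.31. The stem cell factor sall4 was represented by 2 probe sets. A bright one, named from the tables of the study, had 1345 in en-pou5f3 and 5204 in wild-type embryos, and a dim one 33.7 and 59.7.

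The Myc genes, which drive growth and proliferation, were split. The signals of mycn were 1486 in en-pou5f3 and 3695 in wild-type embryos in the brighter of 2 probe sets, which were 2.49-fold and 2.79-fold lower. The copies mych and myca were 2.55-fold and 2.78-fold lower, myclb and mycla had log2 ratios of -0.85 and -0.63, and mycb went the other way, with 1567 in en-pou5f3 and 1054 in wild-type embryos (0.57). The partner max was nearly level at 3109 in en-pou5f3 and 3266 in wild-type embryos. No T-box gene passed the threshold in 9 measured, among them tbx16 at 2299 in en-pou5f3 and 1459 in wild-type embryos and tbx6 at 642 and 609. Nor did any of 12 TALE genes or 7 smad genes. Among all named genes 1.85% were lower and 1.57% higher. At such shares families this small can lack a gene past 2-fold, so nothing is concluded from their counts.

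Grouped by tissue, the lists for the anterior neural plate and for neural progenitors had the lowest medians of the 18 lists plotted. List counts here and below are to be read beside all named genes, of which 1.85% were lower and 1.57% higher. In the list for forebrain, midbrain and eye, 20 of 34 measured genes were lower and 0 higher (median log2 ratio -1.14), and of 21 neural progenitor genes 10 were lower and 0 higher (median -0.93). These lists follow genes that the study itself discusses on these arrays, and so their counts are not independent of it. Of 24 hindbrain genes only hoxa2b and hoxd3a were lower, and the median was -0.42. Among 15 genes of the midbrain-hindbrain boundary her5 and fgf8a were lower, while the engrailed genes en2b and en2a had log2 ratios of -0.97 and -0.43 and cnpy1 had 0.17. In the list of proneural genes and early neurons 6 of 22 were lower and 0 higher (median -0.30). Among them were ascl1a, a proneural bHLH gene, with 56.3 in en-pou5f3 and 190 in wild-type embryos, olig3 of the dorsal neural tube, with 129 and 357, and the tubulin gene tubb5, with 312 and 636.

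Of the 138 lower genes 122 had a wild-type signal over the floor at 90% epiboly, and 59 were at least 2-fold lower there too, with 0 higher. The overlap was smaller on the other side. Of the 117 higher genes 91 had a wild-type signal over the floor at 90% epiboly, and 12 were at least 2-fold higher there and 1 lower. The share of all named genes past 2-fold at 90% epiboly is not given here, so these overlaps have no base share beside them. A few of the lower genes, chosen after their values were seen, had a far higher wild-type signal at 3-ss than at 90% epiboly. The eye and midbrain gene mab21l2 had signals of 62.9 in en-pou5f3 and 56.6 in wild-type embryos at 90% epiboly, and of 86.8 in en-pou5f3 and 342.5 in wild-type embryos at 3-ss. The bHLH gene bhlhe22 was under the floor in both genotypes at 90% epiboly, and at 3-ss it had 24.0 in en-pou5f3 and 142 in wild-type embryos, at least 4.38-fold lower. Genes outside the neural lists showed it too. The signals of irg1l, related to an enzyme of activated macrophages, were 42.8 in en-pou5f3 and 125 in wild-type embryos at 90% epiboly and 323 and 2126 at 3-ss, 6.58-fold lower at the later stage. Those of nradd, a relative of the p75 neurotrophin receptor, were 291 in en-pou5f3 and 286 in wild-type embryos at 90% epiboly and 289 and 1020 at 3-ss. In all 4 genes the wild-type array at 3-ss was the high one of the 4.

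Of 25 measured genes of the neural crest and plate border 6 were lower and 0 higher (median -0.19). Beside tfap2a and tfap2c these were foxd3, with signals of 332 in en-pou5f3 and 1192 in wild-type embryos, the protocadherin pcdh18a, with 42.3 and 164, and both copies of inka1, which encodes an inhibitor of the kinase Pak4. The 2 probe sets of inka1a were 2.25-fold and 2.35-fold lower, and inka1b had 112 in en-pou5f3 and 410 in wild-type embryos. Over the whole list 18 log2 ratios were below 0 and 7 above. Of the genes within 2-fold, sox10 had 675 in en-pou5f3 and 874 in wild-type embryos. Among the 7 above 0, msx1a, sox9b and id2a had log2 ratios of 0.55, 0.55 and 0.98. The placode list had klf17, gata3 and irx7 of 16 lower and the heart and pronephros list 0 of 11.

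In the epidermis and periderm list 4 of 43 genes were lower and 1 was higher, and the median was -0.09. The water channel aqp3a had signals of 201 in en-pou5f3 and 629 in wild-type embryos, 3.13-fold lower, and the galectin lgals2b 97.4 and 219, 2.24-fold lower. All 15 measured keratins stayed within 2-fold, with log2 ratios from -0.36 to 0.84. So did 27 claudins and other junction genes, with log2 ratios from -0.92 to 0.83. Their SD of 0.433 was close to the 0.438 of all named genes. Counts of 0 in families this small lie near the shares of all named genes. The higher gene of the list was elf3, an epithelial ETS factor, with 474 in en-pou5f3 and 86.8 in wild-type embryos, 5.46-fold higher.

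**Figure D3:**
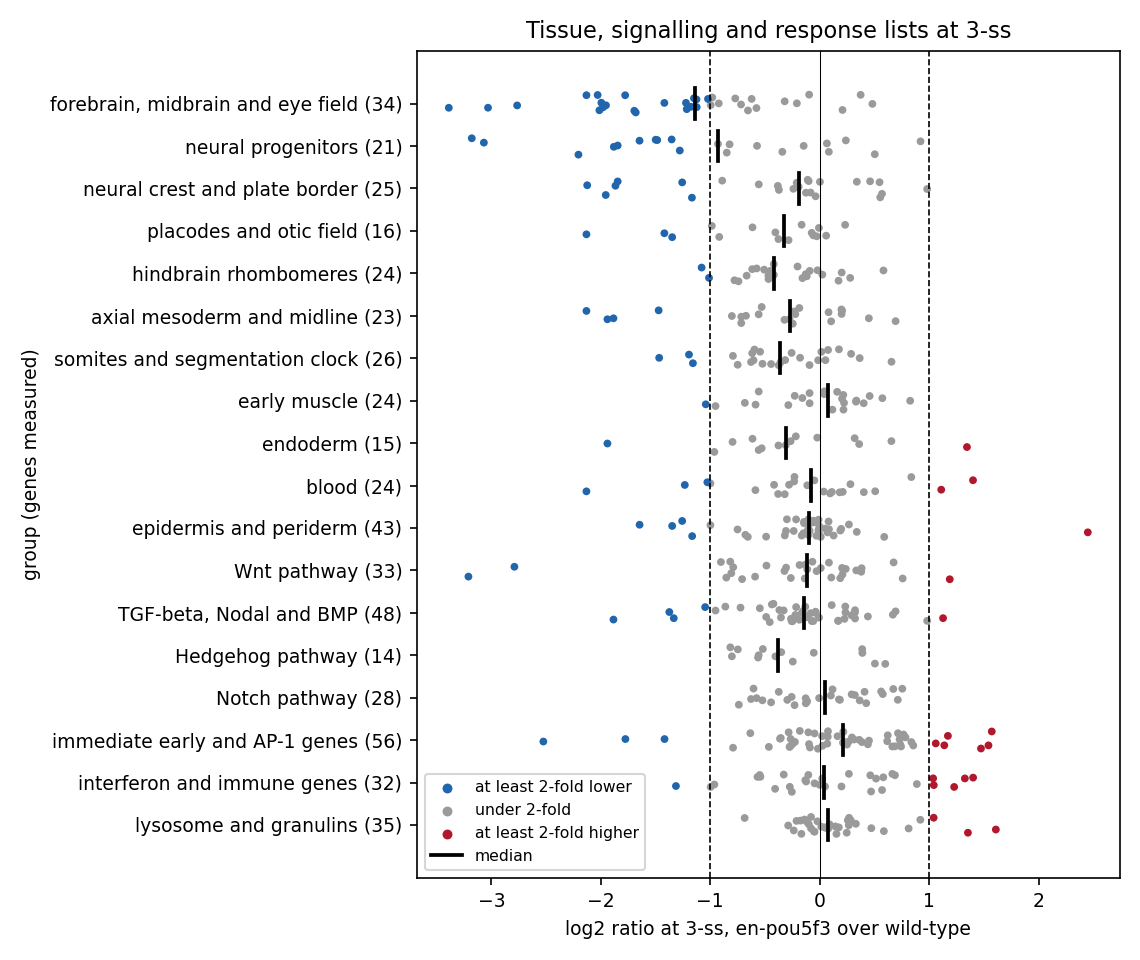
Log2 ratio (en-pou5f3 over wild-type, 3-ss) for 18 lists of tissue, signalling and response genes, 1 point a gene, with the median as a bar, dashed lines at 2-fold and the number measured in brackets. The top 2 lists have their medians near the lower line, Hedgehog and Notch genes all lie between the lines, and the bottom 3 lists have most of their changed genes on the right.

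In the lists for mesoderm and endoderm a few genes passed in each. Of 26 somite and segmentation clock genes 3 were lower, the protocadherins pcdh8 and pcdh10b and the bHLH gene mespba. In early muscle 1 of 24 was lower, the dim myod1. Among 23 axial genes chrd, foxa1, gsc and klf17 were lower, and of 15 endoderm genes foxa1 was lower and sox32 higher. Blood genes went both ways, with gata1a, klf17 and klf3 lower and the haem and red cell genes alas2 and slc4a1a at least 2.64-fold and 2.16-fold higher on dim signals in en-pou5f3 embryos of 85.7 for alas2 and 70.06 for slc4a1a. Plasma protein genes of the yolk syncytial layer and liver gave a split within 1 complex. Of the 3 fibrinogen chains, fgb had signals of 183 in en-pou5f3 and 535 in wild-type embryos and fga 46.2 and 116, whereas fgg had 476 and 506. The apolipoprotein gene apoa4a had 107 in en-pou5f3 and 311 in wild-type embryos.

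Among ligands and receptors few members of each pathway passed. In the Wnt list, sp5l and the receptor fzd8b were lower and gpc4, a glypican that binds Wnt ligands, was higher, of 33 genes (median -0.11). The signals of fzd8b were 33.2 in en-pou5f3 and 230 in wild-type embryos, 6.92-fold lower, and those of its copy fzd8a 489 and 846 (log2 ratio -0.79). The feedback gene axin2 had 1530 in en-pou5f3 and 958 in wild-type embryos (0.68), opposite to sp5l. Of 24 FGF genes ets2 was higher and the ligand fgf8a lower, with 108 in en-pou5f3 and 529 in wild-type embryos, 4.91-fold lower. Among FGF feedback genes, etv4, spry4, dusp5 and il17rd were within 2-fold, with log2 ratios between -0.53 and -0.30. Others went the other way. In the dusp, spry and spred family 8 log2 ratios were below 0 and 5 above, and in the whole FGF list 15 were below and 9 above (median -0.10).

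Of 48 genes of TGF-beta, Nodal and BMP signalling 4 were lower and 1 was higher (median -0.14). The BMP antagonist chrd had signals of 77.9 in en-pou5f3 and 288 in wild-type embryos, 3.69-fold lower. The Nodal co-receptor tdgf1 had 200.3 and 519, and the BMP receptor bmpr1ba 175 and 441. The ligand subunit inhbaa, the fourth, was dim, and the ligand gene tgfb1a was 2.18-fold higher, at 119 in en-pou5f3 and 54.4 in wild-type embryos. No gene passed in the Notch (28 measured), Hedgehog (14) or retinoic acid (23) lists. Of all named genes 1.85% were lower and 1.57% higher, so counts of 0 in lists this short lie near those shares. The medians of these lists were 0.05, -0.38 and -0.21, and their lowest members were her2 (-0.74), nkx2.2b (-0.82) and dhrs3a (-0.97). The Hedgehog median rested on 10 of 14 genes below 0. A dimmer probe set of notch1a had 11.5 in en-pou5f3 and 70.6 in wild-type embryos, at least 2.18-fold lower. The brightest one of this gene had a log2 ratio of -0.58.

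Cell surface and signal-ending proteins held further decreases. Of 12 cadherins and protocadherins, which hold cells together selectively, 4 were lower and 0 higher, all 4 of them protocadherins. The signals of pcdh8 were 85.4 in en-pou5f3 and 236 in wild-type embryos, and pcdh10b and pcdh1b were 2.29-fold and 2.27-fold lower. The classical N-cadherin gene cdh2 had 1059 in en-pou5f3 and 2046 in wild-type embryos (log2 ratio -0.95) and the epithelial cdh1 had 2582 and 2601. Of 5 regulators of G protein signalling rgs2 and rgs12a were lower. For rgs2 the 2 probe sets had 77.1 and 92.0 in en-pou5f3 embryos, against 444 and 334 in wild-type embryos, 5.76-fold and 3.62-fold lower. The repulsive guidance gene rgma had 335 in en-pou5f3 and 865 in wild-type embryos, and the receptors plxnd1 and epha2a were 2.32-fold and 2.08-fold lower. The chemokine receptor ackr3b, which clears Cxcl12, had 233 in en-pou5f3 and 580 in wild-type embryos, and the signalling receptor cxcr4a had 202 and 394 (-0.96). Chemokines and their receptors went both ways, with 1 of 10 lower, 2 higher and 5 log2 ratios on each side of 0. The receptor gene cxcr3.3 had 133 in en-pou5f3 and 62.4 in wild-type embryos, 2.13-fold higher.

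**Figure D4:**
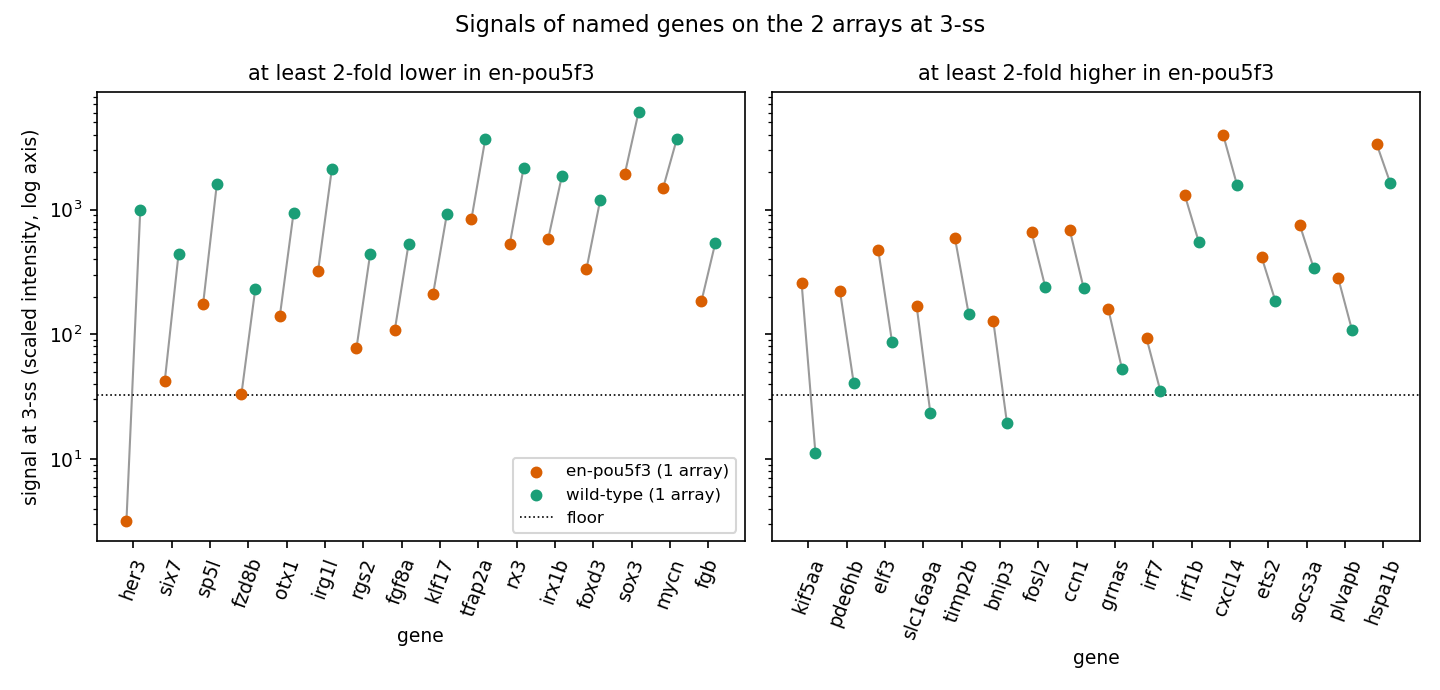
Signals at 3-ss (log axis) of 16 genes past 2-fold on the low side (left panel) and 16 on the high side (right panel) of wild-type embryos, with the en-pou5f3 array left of the wild-type array for each gene and the floor of 32.4 dotted. Lower genes such as her3, sp5l and irg1l have wild-type signals of 990, 1620 and 2126, while kif5aa, slc16a9a and bnip3 have wild-type signals under the floor, which makes their folds bounds.

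The largest increases were those of 2 transcripts that the tables of the study list without a function. The signals of wu:fc22g01 were 1447 in en-pou5f3 and 46.3 in wild-type embryos, 31.2-fold higher, and those of wu:fe14d06 were 1967 and 131, 15.05-fold higher. Among genes named by the annotation, each by its brightest probe set, the highest ratios belonged to kif5aa, a kinesin of nerve cells, to pde6hb, a subunit of the phosphodiesterase of photoreceptors, and to elf3. The signals of pde6hb were 223 in en-pou5f3 and 40.5 in wild-type embryos, 5.51-fold higher. The monocarboxylate transporter gene slc16a9a had 170 in en-pou5f3 and 23.3 in wild-type embryos, at least 5.24-fold higher, and bnip3, which acts in the removal of mitochondria, 129 and 19.3, at least 3.97-fold higher. The adhesion gene tln2a, a talin, was at least 3.35-fold higher. Both probe sets of timp2b, an inhibitor of metalloproteinases, were higher. They had 594 and 744 in en-pou5f3 embryos, against 145 and 233 in wild-type embryos, 4.09-fold and 3.19-fold. The list of synapse and secretion genes holds kif5aa as well. Of its 44 genes on the array 24 passed the floor, and 3 of these were higher (12.5%, beside 1.57% of all named genes). All 3, kif5aa, syt4 and rab3c, passed the floor in en-pou5f3 embryos alone. They were thus counted as measured only through the array in which they were high, and no weight is put on this share. The synaptotagmin gene syt4 had 92.8 in en-pou5f3 and 23.4 in wild-type embryos, and rab3c, a GTPase of secretory vesicles, had 86.0 and 20.9. Both wild-type signals were under the floor. The receptor-type phosphatase gene ptprna of the same list was lower, with 64.3 in en-pou5f3 and 145 in wild-type embryos. The tubulin gene tuba2 had 824 in en-pou5f3 and 292 in wild-type embryos in its brightest probe set, and another probe set of it had a log2 ratio of 0.10.

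The other probe sets with the largest ratios in each direction included several with little or no known function. On the low side, the proneural gene neurog1 had signals of 63.5 in en-pou5f3 and 477 in wild-type embryos, and mxtx1, a homeobox gene of the yolk syncytial layer, had 49.5 and 234. The transcripts wu:fd23c12 and LOC565377 were 6.05-fold and 5.25-fold lower. On the high side, wu:fd13f06, LOC562414 and ptprn2l were between 4.64-fold and 5.07-fold higher. All of these but neurog1 take their names from the tables of the study.

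In some genes the probe set with a large ratio was not the brightest one. For cops4, a subunit of the COP9 signalosome, it had 374 in en-pou5f3 and 52.6 in wild-type embryos, 7.12-fold higher. The brightest cops4 probe set had 430 and 426, and another had 247 and 382, in the same order (log2 ratio -0.63). For ccdc102a the brightest probe set was higher as well, 2.09-fold against 3.33-fold. For brd2a, a reader of acetylated histones, the brightest had a log2 ratio of 0.57 beside a bound of at least 2.89-fold. The brightest probe sets of hells, a chromatin remodeller, and nsd1a, a histone methyltransferase, had log2 ratios of -0.60 and 0.53, beside dim ones that were at least 3.02-fold and 2.68-fold lower. Among the remaining bounds, wu:fb39e08, named from the same tables, was at least 4.44-fold, the GTPase gene rem1 at least 2.84-fold and tspan34b at least 2.697-fold lower, and bace1, a protease of nerve cells, and cfp, the complement factor properdin, were at least 2.76-fold higher.

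The matrix list had 3 of 37 genes higher and 1 lower (median 0.14). Beside timp2b and ccn1 the link protein gene hapln1a was higher, and the fibrillar collagen gene col5a2a had 54.8 in en-pou5f3 and 126 in wild-type embryos, 2.29-fold lower. The gap junction genes went both ways, as gja1b had 231 in en-pou5f3 and 110 in wild-type embryos and gjb8 had 44.2 and 103. The vessel gene plvapb, which encodes a protein of endothelial fenestrae, had 283 in en-pou5f3 and 108 in wild-type embryos, 2.61-fold higher, and was the exception among 11 vessel genes. Of 107 solute carriers 2 were lower (1.87%, close to the 1.85% of all named genes) and 4 higher (3.74%, beside 1.57%). Of the higher ones slc16a9a, slc37a4b and slc4a1a passed the floor in en-pou5f3 embryos alone. They were counted as measured only through the array in which they were high, and no weight is put on this share. The mitochondrial carrier gene slc25a55a had 459 in en-pou5f3 and 1280 in wild-type embryos, and the fatty acid transporter gene slc27a1a 196 and 78.1.

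Immediate early and AP-1 genes, which respond within minutes to growth factors and stress, had more log2 ratios above 0 than below. Of 56 measured genes 6 were higher (10.7%, beside 1.57% of all named genes) and 3 lower (5.36%, beside 1.85%). Log2 ratios above 0 were found in 36 of the 56 (median 0.22). The signals of fosl2, a Fos family member, were 661 in en-pou5f3 and 238 in wild-type embryos in the brightest of 3 probe sets, which were between 2.28-fold and 4.03-fold higher, the last a bound. The stress-responsive atf5a had 377 in en-pou5f3 and 127 in wild-type embryos and the matricellular genes ccn1 and ccn2a 680 and 254 in en-pou5f3, against 234 and 122 in wild-type embryos. The others were the ETS factor ets2 (418 in en-pou5f3 and 186 in wild-type embryos) and the cytokine feedback gene socs3a (749 and 340). The 3 lower members were rgs2, the cyclooxygenase gene ptgs2a, with 285 in en-pou5f3 and 975 in wild-type embryos, and nfe2l3. The bright fosab had a log2 ratio of 0.72 in its brightest probe set, and 1 of the other 3 was 2.15-fold higher, while egr2a had -0.79.

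Genes of interferon responses and immunity were higher in 5 of 32 (15.6%, beside 1.57% of all named genes) and lower in 1. The regulators irf1b and irf7 had signals of 1300 and 92.9 in en-pou5f3 embryos, against 555 and 35.2 in wild-type embryos, 2.34-fold and 2.64-fold higher. The chemokine gene cxcl14 was the brightest, with 3965 in en-pou5f3 and 1581 in wild-type embryos, 2.51-fold higher. The ubiquitin-like isg15 and b2m, the light chain of MHC class I, were 2.05-fold and 2.06-fold higher. In the irf and stat family 7 of 8 genes had log2 ratios above 0, including stat3 at 0.89, and stat5a had -0.996 with a signal under the floor in en-pou5f3 embryos. The median of the whole list was 0.04, close to that of all genes.

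Of 35 lysosome and granulin genes 3 were higher (8.57%, beside 1.57% of all named genes) and 0 lower, with a median of 0.08. These were the granulins grna and grnas, which had 120.3 and 160.5 in en-pou5f3 embryos, against 47.1 and 52.6 in wild-type embryos, and the melanosome gene pmelb. The signals of pmelb were 66.8 in en-pou5f3 and 22.3 in wild-type embryos. It was counted as measured only through the array in which it was high, and no weight is put on the share of this list. The cathepsin genes ctsd (4657 in en-pou5f3 and 5128 in wild-type embryos) and ctsla were within 2-fold. The bright probe sets of ctsba, cathepsin B, disagreed. The one that the annotation names had 9097 in en-pou5f3 and 14635 in wild-type embryos, and another, named from the tables of the study, had 11014 and 4091, 2.69-fold higher. For laptm4b, a lysosomal membrane protein, a dimmer probe set was 4.35-fold higher, with 1324 in en-pou5f3 and 304 in wild-type embryos, while the brightest had 1989 and 1434. Chromatin genes held hdac4, a class II histone deacetylase, 2.93-fold higher on dim signals, and prmt6, an arginine methyltransferase, 2.23-fold lower, with 197 in en-pou5f3 and 438 in wild-type embryos. In the unfolded protein response list the chaperone hsp90b1 alone passed, 2.34-fold lower with 1143 in en-pou5f3 and 2675 in wild-type embryos.

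Of 31 genes in the heat shock list 1 was higher (3.23%, beside 1.57% of all named genes) and 0 lower. This was hspa1b, 2.07-fold higher at 3383 in en-pou5f3 and 1631 in wild-type embryos. In the list 23 log2 ratios were above 0 (median 0.16). Both genotypes had been heat-shocked. Relatives of the HSP70 family outside the list passed in either direction. The brightest probe set of hsc70 had 849 in en-pou5f3 and 346 in wild-type embryos, 2.46-fold higher, and hspa12a had 182 and 424, 2.34-fold lower.

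Families of the protein synthesis and energy machinery had narrow distributions. These 8 families hold ribosomal proteins, translation factors, tRNA synthetases, proteasome subunits, chaperonins, respiratory chain subunits and helicases. In them 0 of 400 measured genes passed 2-fold in either direction, while of all named genes 1.85% were lower and 1.57% higher. The SD of the log2 ratio was 0.219, against 0.438 over all named genes and 0.833 over the transcription factor families. Spread also fell with signal over all probe sets, and signal level was not matched in this contrast. Other families used by every cell held single calls, ube2h (-1.35) of 51 ubiquitin enzymes and srsf1b (-1.01) of 66 splicing factors and hnRNP genes. Cytosolic ribosomal proteins had a median of 0.00 over 75 genes. Mitochondrial ribosomal proteins had 49 of 59 genes below 0 and a median of -0.11. No gene in the lists of p53 and apoptosis (34 measured), the circadian clock (21) or the histones (23) passed. Counts of 0 in lists this short lie near the shares of all named genes. The histone list leaves out wu:fe11b02, named from the tables of the study, which the paper places in a histone family. It was at least 2.5-fold higher on dim signals of 81.2 in en-pou5f3 and 21.9 in wild-type embryos. The paper describes histone genes as marginally raised at both stages, and in its own ratios some of them passed 2-fold at 3-ss. Those ratios came from the authors' array software and differ in method from the floored ratios used here. In DNA replication and the cell cycle 2 of 76 were higher, both dim (top2a and wee2), with 0 lower. The extreme members were plk3 (-0.76) and casp9 (0.96) for p53 and apoptosis and cdc25b (-0.94) for the cell cycle.

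**Figure D5:**
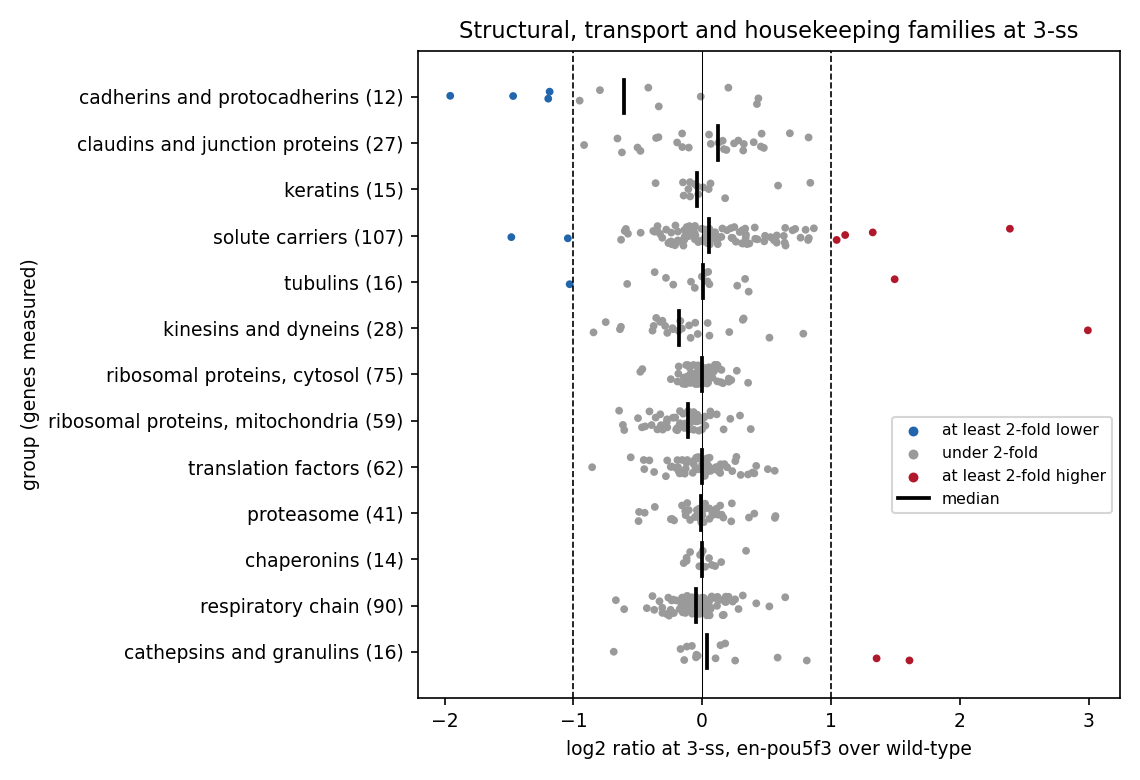
Log2 ratio (en-pou5f3 over wild-type, 3-ss) for 13 families of adhesion, cytoskeletal, transport and housekeeping genes, 1 point a gene, with the median as a bar, dashed lines at 2-fold and the number measured in brackets. Ribosomal, translation, proteasome, chaperonin and respiratory chain genes cluster at 0 without a point past a line, while 4 protocadherins lie left of the lower line.

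Probe sets of the same gene gave the only repeated measure on these arrays. In the 1155 named genes with several measured probe sets, the SD of log2 ratios within a gene was 0.357, which holds no variation between embryos. Of the 19 lower genes with a second probe set, 7 had all probe sets past 2-fold, 11 had all on the same side and 1 had another on the opposite side. That gene was elavl3 of early neurons, with log2 ratios of -1.21, -0.18, 0.60 and 0.58. Of the 13 higher genes with several, all probe sets passed in 1, all were on the same side in 10, and in hapln1a and top2a another was on the opposite side. The gene with all past 2-fold was fosl2.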

How the data were processed

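Intensity values are MAS5 signals (version not given in the sources used here) that the authors deposited on a linear scale, scaled to a trimmed mean of about 500.1 on each array. The methods name 12 arrays, of which 4 were analysed here, and the study's tables head columns by heat shock where the labels give genotypes; the labels were followed. Log2 ratios, floor and 2-fold counts were computed in Python (3.11.15) using pandas 2.3.3 and numpy 2.4.6. The floor is the 95th percentile of 80 signals from 20 control probe sets (32.4). Of 15502 probe sets, 10795 had 1 symbol in GEO's platform annotation, 135 several and 4396 none. Another 176 were named from the study's tables, which favour changed genes, and entered no list. Genes past 2-fold are named by rule: the 15 largest ratios and 10 largest bounds a direction, members of 41 lists and 70 families past 2-fold with their largest or extreme members, and members of small families. Other level members, and genes named outside the lists, were chosen after their values were seen. Members and lists were chosen with earlier results of these data known. With 1 array a group, no test was made; the calculation was tested on simulated data. Alternatives changed the floor, scaling, threshold and choice of probe sets.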

Additional observations from a re-analysis of the deposited data

Results flagged for a closer look

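A control probe set of the manufacturer, left out of every comparison above, differed between the genotypes more than nearly all others. Its signal was 14534 in en-pou5f3 and 1670 in wild-type embryos at 3-ss, 8.70-fold higher. At 90% epiboly it was 5531 in en-pou5f3 and 110 in wild-type embryos, 50.4-fold higher. The wild-type array at 3-ss thus had 15.22 times the signal of the wild-type array at 90% epiboly. What this probe set reads is not given in the sources used here. Of the 53 zebrafish control probe sets 1 other passed 2-fold at 3-ss.

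At each stage a probe set of copg2 and one of c6.2 passed 2-fold in opposite directions. The log2 ratio of copg2 was -1.36 at 90% epiboly and 1.49 at 3-ss, and that of c6.2 was -1.23 and 1.42. With 1 array a group the difference between the stages was not tested. The brightest copg2 probe set had a log2 ratio of 0.08 at 3-ss.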

How the results depend on the processing

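Counts of probe sets depended on the floor and the threshold. Without a floor 1061 were lower and 1424 higher, with a low floor, set at the controls' median, 787 and 1099, with the floor added to both signals 146 and 123, at 1.5-fold 850 and 961, and at 3-fold 64 and 24. The share of calls that were decreases, 51.9% here, was 42.7% without a floor, 41.7% with the low floor and 72.7% at 3-fold. Under the other 5 alternatives (floor from the 3-ss arrays, median centring, quantile normalization, both signals over the floor, no shared probe sets) counts stayed within 1.5 times. Names from the study's tables would give 167 lower and 133 higher genes, against 138 and 117. The median of the forebrain list was -0.998 with the floor added, that of neural progenitors -1.10 without a floor, with the low floor and without shared probe sets, and -1.28 with names from the study's tables (chosen after seeing the data). The Wnt median was -0.18 with the low floor, and the sox median -0.37 with the mean or median of a gene's probe sets. Small medians changed sign: blood to 0.036 and vessels to -0.023 without a floor, vessels to -0.023 with the low floor, early zinc fingers to 0.017 without shared probe sets, and tRNA synthetases to 0.041 and 0.0071 with the mean and median of probe sets. None of the 255 called genes changed sign. With the floor added 80 of 138 and 47 of 117 stayed past 2-fold, and with quantile normalization 135 and 99. No paired analysis was possible because each group had 1 array, and no array could be left out. Signals near the floor limit dim genes.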

Other observations

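Zebrafish keep many genes in duplicate, with symbols that differ in a final a or b. Of 519 such pairs with both copies measured, 7 had both copies at least 2-fold lower and 0 had both higher. One copy alone was lower in 12 pairs and higher in 21. In 2 pairs the copies passed in opposite directions. The signals of pde6ha were 37.1 in en-pou5f3 and 102 in wild-type embryos, and those of pde6hb 223 and 40.5. The signals of mllt1b, which encodes a chromatin reader of the super elongation complex, were 517 in en-pou5f3 and 1067 in wild-type embryos, and those of mllt1a were dim, at 75.1 and 35.6. The pairs with both copies lower were foxb1, inka1, irx1, pax6, six3, sox11 and sox21.

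Some genes outside the lists, chosen after their values were seen, also passed 2-fold. The glycosyltransferases galnt2 and galnt7, which start mucin-type sugar chains, were lower, galnt2 with 358 in en-pou5f3 and 747 in wild-type embryos and galnt7 with 229 and 483. The mitochondrial adenylate kinase gene ak4 had 1703 in en-pou5f3 and 779 in wild-type embryos, the arginase gene arg2 575 and 256, and the arrestin-domain gene arrdc2 1713 and 808, in the same order. Of 2785 measured probe sets without a name, 29 (1.04%) were lower and 48 (1.72%) higher.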
